A study of Homo sapiens with 2 samples.

Results

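The p53 circuit in Huh7 cells was described through 9 genes, chosen by symbol among the 61541 genes of the deposited table: the p53 regulators MDM2 and MDM4 and the p53 targets CDKN1A, GADD45A, SESN1, SESN2, SESN3, GDF15 and ZMAT3. The rule used the symbols alone, although earlier results of these data were known when the genes were picked. All 9 genes were found, each with at least 100 reads in each library. Huh7 is a human hepatocellular carcinoma (HCC) cell line that carries mutant p53. RNA-seq was performed on Huh7 cells given a control siRNA (si-NC, here Huh7-NC) and on Huh7 cells given siRNA against BRF2 (si-BRF2, here Huh7-si), with 1 library in each condition. BRF2 is a subunit of an initiation factor of RNA polymerase III. Both libraries came from the same cell line, a single model of HCC, the study lists more than 1 siRNA against BRF2 and does not say which was sequenced, and no difference between the conditions has a replicate check. The gene that encodes p53 is not analysed here.

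p53 is a transcription factor that is activated by DNA damage and other stresses. It switches on genes that halt the cell cycle, repair DNA, limit growth or kill the cell. MDM2 is a ubiquitin ligase that marks p53 for destruction and is itself a p53 target, which makes a feedback loop. MDM4 is a relative of MDM2 that binds p53 and blocks its activity. Several of the targets also answer to other inputs: GDF15 and SESN2 to the integrated stress response, SESN1 and SESN3 to FOXO factors, and GADD45A to both p53 and other stress signals. In cells with mutant p53, the usual control of these genes by p53 is often lost.

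The response element through which p53 reaches its targets was looked for in RefSeq promoter sequences (build GRCh38.p14), in windows from 250 bases before to 50 bases after each transcript start. The p53 response element was searched as 2 decamers of the consensus side by side, 20 bases with at most 3 mismatches; the consensus reads the same on both strands. RefSeq windows were matched by symbol for 8 of the 9 genes, and GADD45A was not matched. Elements were found at starts of MDM2, SESN1 and GDF15, in 4 of 14 windows, 2 of which overlap at MDM2. Among all 35116 windows, 5.2% held such an element. RefSeq gives MDM2 and SESN1 more than 1 start, and the stretches before the starts that held an element are shown so that the matched letters can be read. Capitals mark the elements, the strand shown is that of the gene, and each sequence ends at the base before the start.
MDM2, downstream start, chr12:68808883-68809016, plus strand: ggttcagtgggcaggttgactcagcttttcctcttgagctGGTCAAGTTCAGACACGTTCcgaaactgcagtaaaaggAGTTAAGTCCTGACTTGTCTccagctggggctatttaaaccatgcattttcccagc
SESN1, downstream start, chr6:109008989-109009077, minus strand: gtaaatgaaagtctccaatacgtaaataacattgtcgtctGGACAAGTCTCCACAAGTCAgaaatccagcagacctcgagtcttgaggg

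The MDM2 stretch held 2 elements that did not overlap, the closer match with 2 mismatches, a match that 0.649% of all windows held. The windows of the upstream MDM2 starts held none. The SESN1 stretch held 1 element with 3 mismatches, whose first decamer matched the consensus in full, as a decamer did in 6.63% of all windows. Its other 2 starts had none. In GDF15 the element had 3 mismatches and did not lie wholly before the start, so it is not shown. Of the 8 matched genes, GDF15 alone had a TATA box (TATAAA on either strand), which 11.5% of all windows held. No such element lay in the windows of MDM4, CDKN1A, SESN2, SESN3 and ZMAT3. Bases outside the windows were not searched, so an element of these genes that lies elsewhere would be missed. These matches describe letters in the windows, and the gene-level reads cannot be divided between starts.

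The authors' table holds estimated reads and TPM (an abundance scaled by gene length) of every gene in both libraries. Total reads were 22852648 for Huh7-NC and 22089016 for Huh7-si. Differences between libraries are given as the log2 fold change of CPM (a gene's reads as a share of its library's total), Huh7-si over Huh7-NC, with a 95% exact Clopper-Pearson interval, which covers counting error only. Calls of up- or down-regulation needed a 2-fold difference or more and an exact binomial p below 0.05 (two-sided, not adjusted). With 1 library each, this test sets library against library, not condition against condition. In bulk RNA, fewer cells that express a gene and less RNA per cell cannot be told apart. BRF2, the target of the siRNA, had 1281 reads with si-NC and 364 with si-BRF2 (log2 fold change -1.77, interval -1.94 to -1.60). Of 8 hepatocyte and hepatoma markers all were detected, with summed TPM of 12720 in Huh7-NC and 13195 in Huh7-si, and the 3 with the most reads among those not called, ALB, AFP and SERPINA1, had log2 fold changes of -0.11, 0.24 and -0.15. The similar sums hold markers that moved apart: the long gene APOB was called up-regulated (1.04), and APOA1 (-0.83) passed a fold threshold of 1.5 downward. Of 6 markers of other cells, PTPRC, of leukocytes, had 5 and 1 reads. The summed TPM of the 6 was 267 in Huh7-NC and 402 in Huh7-si, most of it from VIM, at 246.4 and 361.99 TPM. COL1A1 (76 and 229 reads) and COL1A2 (737 and 1687 reads) were called up-regulated. VIM, PECAM1 and CD68 had log2 fold changes of 0.37, 0.12 and 0.10. The part of these markers in the results below was not tested.

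None of the 9 genes was called up- or down-regulated, where 10.4% of all 26379 genes with reads were called up-regulated and 1.02% down-regulated. Of the 9 log2 fold changes, 8 were above 0 and 1, that of CDKN1A, was below 0. Counting error alone left 6 intervals above 0, 1 below 0 and 2, those of SESN1 and SESN2, that included 0. The median of the 9 genes was 0.28, and the median of 17782 genes with at least 10 reads was 0.21. Scaling therefore bears on the directions: edgeR's TMM shifts each log2 fold change by -0.22, and with it MDM2 stood at -0.07 and SESN2 at -0.18, so that 6 genes were above 0 and 3 below. Any CPM difference or list median given below between 0 and 0.22 likewise falls below 0 with TMM. At a fold threshold of 1.5, MDM4 and SESN3 were called up-regulated and no gene was called down-regulated. Over all genes tested, 17.6% were called up-regulated and 2.87% down-regulated at that threshold, and among the 11259 genes with at least 100 reads in each library 17.1% were called up-regulated, so that the 2 of 9 lie near the background. Both are long genes, and 55.2% of the genes in their length bin were called up-regulated at that threshold.

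**Figure D1:**
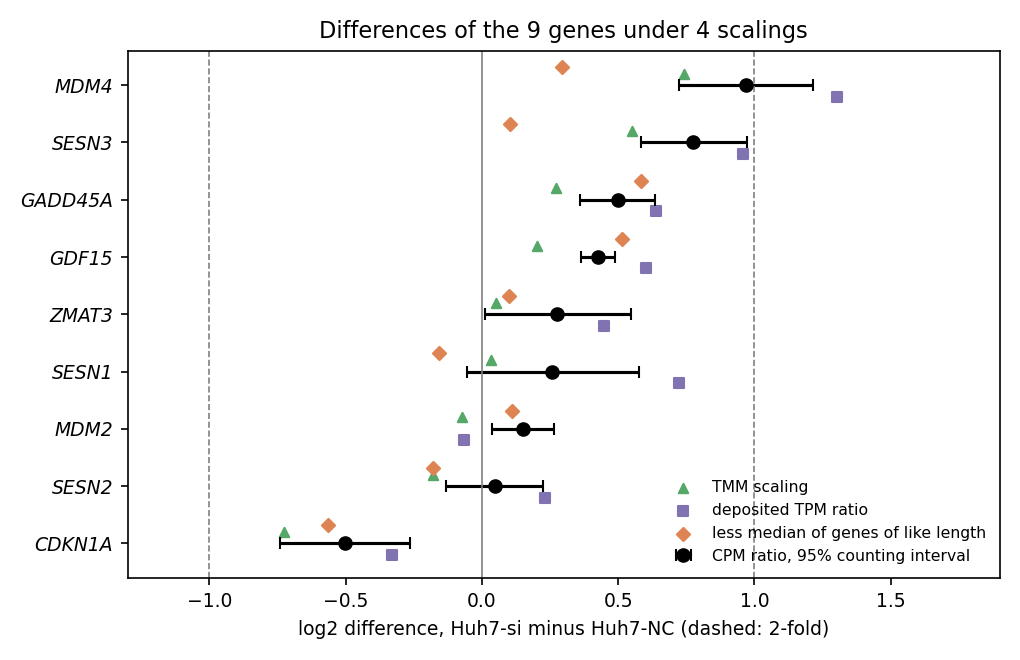
Log2 differences (x axis, Huh7-si minus Huh7-NC, 1 library each) of the 9 genes (y axis), as CPM ratios with 95% counting intervals, with TMM scaling, by the deposited TPM, and relative to genes of similar length. CDKN1A lies below 0 and MDM4, SESN3, GADD45A, GDF15 and ZMAT3 above 0 in all 4, while MDM2, SESN1 and SESN2 lie on both sides of 0.

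The levels per length spread over more than 2 orders of magnitude. GDF15 was the most abundant of the 9 genes, at 198.63 TPM in Huh7-NC, followed by GADD45A (36.5 TPM), MDM2 (20.88), CDKN1A (10.04), SESN2 (8.27), SESN1 (2.55), SESN3 (1.92), ZMAT3 (1.40) and MDM4 (1.16). In Huh7-si the first 3 kept their order, at 301.32, 56.8 and 19.97 TPM. Below them SESN2 (9.70 TPM) stood above CDKN1A (7.98 TPM), and MDM4 (2.86 TPM) stood above ZMAT3 (1.91 TPM). With 1 library per condition, the spread of these TPM levels is unknown, so neighbours in this order cannot be separated. Among the genes with a TPM above 0, GDF15 lay at percentile 96.7 in Huh7-NC and MDM4 at percentile 40.6.

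**Figure D2:**
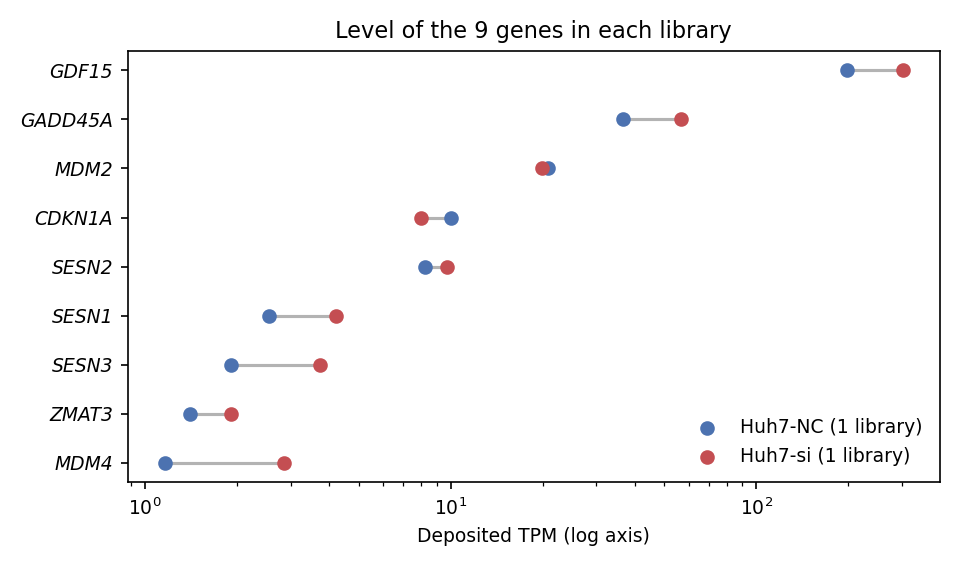
Deposited TPM (x axis, log scale) of the 9 genes (y axis) in Huh7-NC and Huh7-si, 1 point per library, joined by a line. GDF15 is the highest at 198.63 and 301.32 TPM, and the points of MDM4, at 1.16 and 2.86 TPM, lie farthest apart.

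The regulators were examined first. MDM2 (ENSG00000135679, chromosome 12 from 68808176 to 68850686, plus strand, GENCODE release 29, GRCh38) was counted with 1195 reads in the control and 1282 reads after knockdown (52.3 and 58.0 CPM). Its log2 fold change was 0.15 (0.04 to 0.27, exact binomial p = 0.0095). By the deposited TPM, which went from 20.88 to 19.97, its log2 ratio was -0.06, so that its direction depends on the measure. The reads per unit of TPM, a measure of the transcript length behind the TPM, were 57.2 in Huh7-NC and 64.2 in Huh7-si for MDM2, whereas they were lower in Huh7-si than in Huh7-NC for the other 8 genes. Relative to the median shift between the TPM and CPM scales (0.18 over 11259 genes), the TPM ratio of MDM2 differed from its CPM ratio by -0.40, outside the range from -0.30 to 0.30 that holds the genes between percentiles 5 and 95. Exons of MDM2 overlap those of the carboxypeptidase M gene on the opposite strand (418 and 491 reads), of AC025423.4 on the opposite strand (37.9 and 17.4 reads, fewer in Huh7-si) and of AC025423.2 on its own strand (63.9 and 61.2 reads), and reads there may be divided among these genes.

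MDM4 (ENSG00000198625, chromosome 1 from 204516379 to 204558120, plus strand) showed 209 reads in the control library and 395 reads in the knockdown library (9.15 and 17.9 CPM). The log2 fold change of MDM4 was 0.97 (0.72 to 1.22, exact binomial p = 1.2e-15), a level 95.5% higher in Huh7-si and just under the 2-fold threshold, which its interval includes. By the deposited TPM its log2 ratio was 1.30, past 2-fold, as was the TPM ratio of 9.88% of the genes with at least 100 reads in each library. MDM4 is a long gene, at 10050 bases in the table. The 890 genes in its length bin, of at least 8491 bases, had a median log2 fold change of 0.67, and 26.4% of them were called up-regulated. MDM4 lay 0.29 above that median, but below percentile 75 of the 890 genes (1.04). Among the 670 genes of the bin with at least 100 reads in each library, a narrower set, MDM4 lay above 77.3%.

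MDM4 was then compared with MDM2 directly, in a ratio that does not depend on how the libraries are scaled. The log2 fold change of MDM4 was 0.82 larger than that of MDM2 (95% exact interval 0.54 to 1.09). Per length, MDM2 was 18.0 times as abundant as MDM4 in Huh7-NC and 6.98 times as abundant in Huh7-si. When each was set against genes of similar length, the difference was 0.18, and against genes of similar reads per TPM, a comparison added after seeing the data, it was 0.42. The pairs of genes compared here and below, 5 in all, were picked after their values were seen.

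Of 20 further regulators of p53, PRKDC and EP300 were called up-regulated and none was called down-regulated, a share near the 10.4% of all genes called up-regulated. PRKDC, the catalytic subunit of the DNA-dependent protein kinase that responds to DNA breaks, rose from 4731 to 9337 reads (log2 fold change 1.03, interval 0.98 to 1.08). EP300, an acetyltransferase and coactivator of p53, rose from 1437 to 2954 reads (1.09, 0.997 to 1.18). Both are long genes, and 0 of the 20 were called once TMM was applied or genes of similar length were taken as the reference. At a fold threshold of 1.5, where 17.6% of all genes and 55.2% of those in the longest bin were called up-regulated, 7 of the 20 were, the others being the ubiquitin ligase HUWE1 (0.95), the coactivator CREBBP (0.90), the deacetylase SIRT1 (0.86), the damage kinase ATR (0.70) and the kinase HIPK2 (0.59). The ribosomal proteins that bind MDM2 lay below 0: RPL5, RPL11 and RPL23 had log2 fold changes of -0.53, -0.45 and -0.49. Against genes of similar length they stood at -0.38, -0.30 and -0.61. Against genes of similar reads per TPM they stood at -0.22, 0.0 and -0.04, nearer to their peers. The median of the list was 0.11, or -0.13 after subtraction of the median of genes of similar length, beside 0.21 for all genes.

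The growth arrest genes CDKN1A and GADD45A differed in direction. CDKN1A (ENSG00000124762, chromosome 6 from 36676460 to 36687339, plus strand) encodes p21, an inhibitor of cyclin-dependent kinases that p53 uses to stop the cell cycle. Huh7-NC held 359 CDKN1A reads and Huh7-si 245 (15.7 and 11.1 CPM), a level 29.4% lower in Huh7-si. Its log2 fold change was -0.50 (-0.74 to -0.26, exact binomial p = 2.7e-05), and it was the only 1 of the 9 genes with a lower CPM in Huh7-si. It was below 0 under all 8 alternatives, from -0.73 with TMM scaling to -0.33 by the TPM. The scalings shift every gene downward and the pseudocounts are small beside its CPM, so none of these could have reversed it. It was -0.56 against genes of similar length and -0.47 against genes of similar reads per TPM. In its length bin only 5.79% of the 535 genes with at least 100 reads in each library lay lower.

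GADD45A (ENSG00000116717, chromosome 1 from 67685061 to 67688338, plus strand) encodes a small protein that binds PCNA, CDK1 and the stress kinase MAP3K4. Huh7-NC held 740 GADD45A reads and Huh7-si 1010 (32.4 and 45.7 CPM), a level 41.2% higher in Huh7-si. The log2 fold change was 0.50 (0.36 to 0.64, exact binomial p = 7.8e-13), and 0.27 with TMM scaling. GADD45A is a short gene (1352 bases), whose peers in length had a median of -0.09. GADD45A lay 0.58 above that median, which is of the 885 genes of its bin with at least 10 reads. Percentile 75 of those 885 genes was 0.49, just below the value of GADD45A. Among the 483 genes of the bin with at least 100 reads in each library, GADD45A lay above 93.8%. The log2 fold change of GADD45A was 1.0 larger than that of CDKN1A (95% exact interval 0.72 to 1.28), and 1.15 when each was set against genes of similar length. Per length, GADD45A was 3.64 times as abundant as CDKN1A in Huh7-NC and 7.12 times in Huh7-si.

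**Figure D3:**
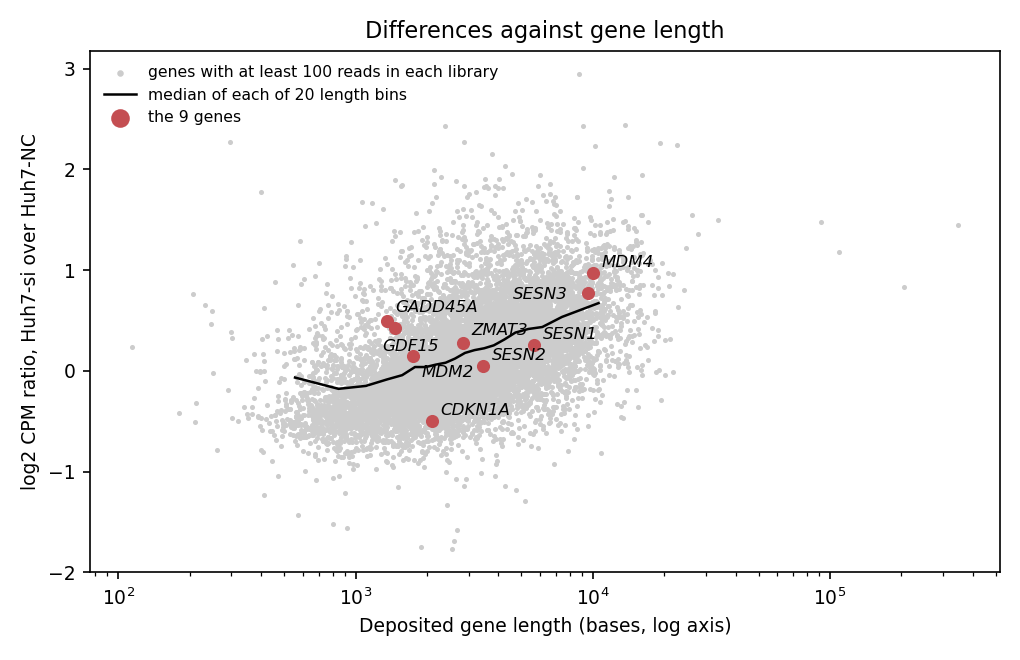
Log2 CPM ratio of Huh7-si over Huh7-NC (y axis) against the deposited gene length in bases (x axis, log scale) for genes with at least 100 reads in each library (grey), the 9 genes (red) and the median of each of 20 length bins (line). The line is taken over genes with at least 10 reads over both libraries, a wider set than the grey points. GADD45A and GDF15 lie 0.58 and 0.51 above the line, CDKN1A lies 0.56 below it, and MDM4 and SESN3 lie 0.29 and 0.10 above it.

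Among the partners and relatives of p21, 0 of 15 genes were called in either direction. At a fold threshold of 1.5 the kinase CDK6 was called up-regulated (0.71). The cyclin CCND3 (-0.65) and the replication clamp PCNA (-0.59), which p21 binds, were called down-regulated at that threshold. Over all genes, 10.4% were called up-regulated and 1.02% down-regulated at 2-fold, and 17.6% and 2.87% at 1.5-fold. Of the 14 genes with at least 10 reads, 10 were below 0, among them CDK4 (-0.38) and cyclin D1, CCND1 (-0.32), with a median of -0.35. Of 15 genes of mitosis that p53 represses through p21 and the DREAM complex, a repressor of cell cycle genes, 0 were called at either threshold. MYBL2 (8120 and 5421 reads), CDC20 (6114 and 4219 reads) and PLK1 (5678 and 4346 reads) had log2 fold changes of -0.53, -0.49 and -0.34, and the long gene CENPF had 0.52. The median of these 15 genes was -0.34, and 0 of the 15 lay above the median of genes of similar length, taken over genes with at least 10 reads. Against genes of similar reads per TPM, CENPF stood at 0.24, and MYBL2, CDC20 and PLK1 at -0.66, -0.37 and -0.36.

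Of 7 relatives and partners of GADD45A, 0 were called, where 10.4% of all genes were called up-regulated and 1.02% down-regulated. At a fold threshold of 1.5, 1 was called up-regulated and 1 down-regulated, beside 17.6% and 2.87% of all genes. GADD45B, a paralog of GADD45A, had 635 and 967 reads (log2 fold change 0.66, interval 0.51 to 0.80), past a fold threshold of 1.5, and lay 0.83 above genes of similar length. PCNA, which GADD45A binds as p21 does, was the lowest of the list at -0.59 and passed the same threshold downward. The partners CDK1 and MAPK14 stood at -0.47 and 0.03.

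The sestrins are stress-inducible proteins that restrain mTOR complex 1 by binding the GATOR2 complex. SESN2 is also known as a leucine sensor. Their differences between the libraries were not alike. SESN1 (ENSG00000080546, chromosome 6 from 108986437 to 109094819, minus strand) was counted with 159 and 184 reads in Huh7-NC and Huh7-si (log2 fold change 0.26, interval -0.05 to 0.58, exact binomial p = 0.11). This difference lay within counting error. By the TPM, which went from 2.55 to 4.21, its log2 ratio was 0.72, and relative to genes of similar length it was -0.16. SESN1 has 5664 bases in the table, more than the longest of its 7 transcripts in GENCODE release 29 (3509 bases).

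SESN2 (ENSG00000130766, chromosome 1 from 28259527 to 28282491, plus strand) was counted with 523 and 522 reads in Huh7-NC and Huh7-si (22.9 and 23.6 CPM). Its log2 fold change was 0.05 (-0.13 to 0.22, exact binomial p = 0.62), inside the counting error of these reads. Relative to genes of similar length it was -0.18. SESN2 was the most abundant sestrin per length in both libraries, with 64.9% of the summed TPM of the 3 genes in Huh7-NC and 54.99% in Huh7-si.

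SESN3 (ENSG00000149212, chromosome 11 from 95165513 to 95232541, minus strand) was counted with 351 and 581 reads in Huh7-NC and Huh7-si (15.4 and 26.3 CPM), a level 71.2% higher in Huh7-si. Its log2 fold change was 0.78 (0.58 to 0.97, exact binomial p = 6.9e-16). SESN3 shares the length bin of MDM4, and it lay 0.10 above the median of that bin, above 62.5% of its genes with at least 100 reads in each library. An antisense gene whose exons overlap those of SESN3, AP000787.1, went from 22.7 to 55.7 reads, and without a stated strand setting reads of the pair cannot be told apart. The log2 fold change of SESN3 was 0.73 larger than that of SESN2 (95% exact interval 0.46 to 0.99) and 0.52 larger than that of SESN1 (0.14 to 0.89). Those of SESN1 and SESN2 differed by 0.21 (-0.15 to 0.58), within counting error. Against genes of similar length, the difference between SESN3 and SESN2 was 0.28, and that between SESN3 and SESN1 was 0.26. By the TPM, the log2 ratio of SESN3 was 0.73 larger than that of SESN2 and 0.23 larger than that of SESN1. The log2 TPM ratio of SESN1 was 0.49 larger than that of SESN2. The summed TPM of the 3 sestrins was 12.7 in Huh7-NC and 17.6 in Huh7-si.

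Of 16 genes that act with the sestrins, the GATOR complexes, the Rag GTPases and related sensors, 0 were called. At a fold threshold of 1.5, DEPDC5, a subunit of the mTOR complex 1 inhibitor GATOR1, was called up-regulated (391 and 706 reads, log2 fold change 0.90). Over all genes, 10.4% were called up-regulated and 1.02% down-regulated at 2-fold, and 17.6% and 2.87% at 1.5-fold. SEC13, of GATOR2, had -0.41, KEAP1 had -0.34 and SQSTM1, the most abundant gene of the list by reads, had -0.03. The median was 0.05.

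GDF15 (ENSG00000130513, chromosome 19 from 18374731 to 18389176, plus strand) encodes a secreted stress cytokine that acts on the brainstem to lower appetite and is often raised in liver disease. Huh7-NC held 3727 GDF15 reads and Huh7-si 4843 (163 and 219 CPM), a level 34.4% higher in Huh7-si. Its log2 fold change was 0.43 (0.37 to 0.49, exact binomial p = 2.4e-42), the narrowest interval of the 9 genes because it had the most reads. It was 0.20 with TMM scaling and 0.60 by the TPM. GDF15 is also a short gene (1470 bases). It lay 0.51 above the median of genes of similar length, the 885 genes of its bin with at least 10 reads. Percentile 75 of those 885 genes was 0.49, above the value of GDF15. Among the genes of the bin with at least 100 reads in each library, a narrower set, GDF15 exceeded 92.8%.

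ZMAT3 (ENSG00000172667, chromosome 3 from 179017223 to 179072279, minus strand) encodes an RNA-binding zinc finger protein that acts in splicing and RNA stability. Huh7-NC held 215 ZMAT3 reads and Huh7-si 252 (log2 fold change 0.28, interval 0.01 to 0.55, exact binomial p = 0.042). Its place against other genes depended on the length used. The table gives it 2826 bases, and it lay 0.10 above genes of that length. Its 154 reads per unit of TPM in Huh7-NC were near those of MDM4 (180.2) and SESN3 (183), and it lay 0.31 below genes of similar reads per TPM.

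Of 30 other p53 targets, 27 were matched by symbol to genes with reads and 0 were called in either direction. At a fold threshold of 1.5, 3 of the 27 were called up-regulated, a smaller share than the 17.6% of all genes: the kinase PLK2 (360 and 624 reads, log2 fold change 0.84), the autophagy gene TP53INP1 (0.66) and the antiproliferative gene BTG2 (0.64). TNFRSF10B, a death receptor and the most abundant of the list by reads, had 3930 and 5663 reads (log2 fold change 0.58). PERP and AEN had 0.17 and -0.22, and RPS27L had the lowest value, -0.51. Of the 25 targets with at least 10 reads, 18 were above 0 and 7 below, with a median of 0.20, and 13 lay above genes of similar length. FAS, the highest point of the list at 1.63, had 3.02 and 9.04 reads and was not called. EDA2R, PHLDA3 and SPATA18 matched no symbol among the genes with at least 1 rounded read, of which 6001 have a blank symbol. A count of 0, if that is what they had, allows up to 3 reads in each library.

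Among 11 stress and FOXO factors that induce members of the set by other routes or report on those routes, ATF3 was called up-regulated. That is 1 of 11, beside 10.4% of all genes. ATF3, a stress-induced transcription factor, rose from 312 to 811 reads (log2 fold change 1.43, interval 1.24 to 1.62), 1.39 above genes of similar length, and was called with TMM scaling as well. At a fold threshold of 1.5, DDIT3 (CHOP, 0.70) and FOXO3 (0.84) were called too, making 3 of 11 beside 17.6% of all genes. FOXO3 is a long gene (7296 bases), and genes of similar length had a median of 0.54. ATF4, the central factor of the integrated stress response, had 11428 and 8893 reads (-0.31). TRIB3 and ASNS had -0.48 and -0.57, while ATF3 and DDIT3, given above, went the other way. NFE2L2, the NRF2 factor that also acts on SESN2, had -0.21. Of the 11 genes, 5 were above 0 and 6 below, with a median of -0.01.

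**Figure D4:**
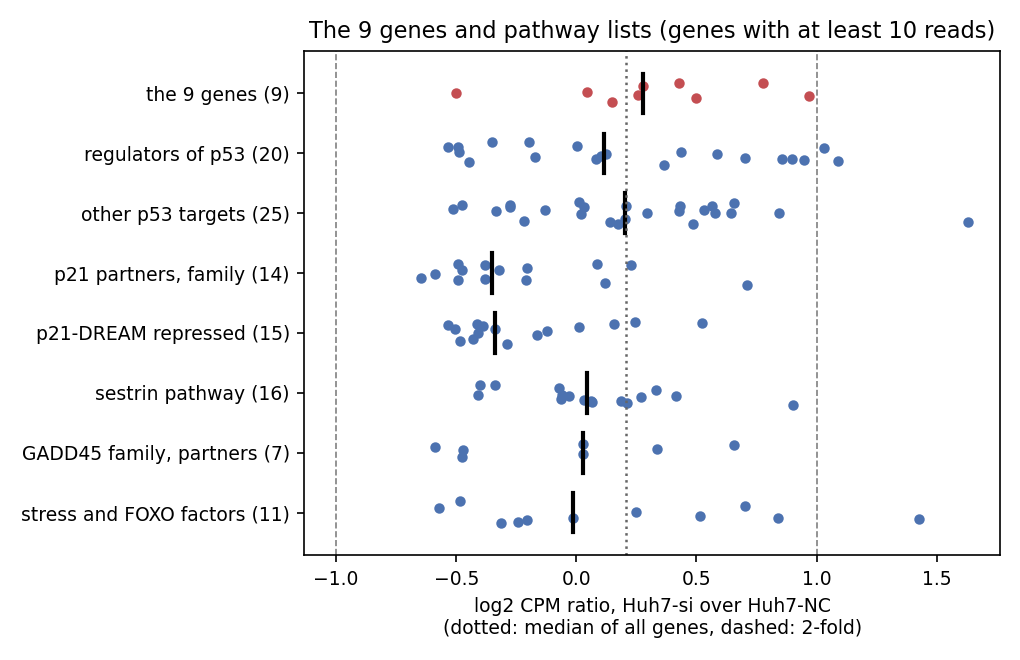
Log2 CPM ratios (x axis, Huh7-si over Huh7-NC) of the 9 genes and of 7 lists of related genes (y axis, number of genes with at least 10 reads in parentheses), with each list's median as a black bar. The genes repressed through p21 and DREAM have a median of -0.34 and the 9 genes a median of 0.28, and the dotted line marks the median of all genes, 0.21.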

How the data were processed

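RNA was sequenced from Huh7 cells, 1 library each for si-NC and si-BRF2. The submitters' processing notes name Bowtie2 2.0.6, TopHat2 2.0.12 and GRCh37, with no role; the counting tool, annotation and strand setting are not given in the sources used here. The authors deposited, per Ensembl gene, an estimated count that is not scaled, a TPM value scaled by gene length and library, and a gene length, together with their own fold, p and regulation columns, which were not used. Positions are those of GENCODE release 29 (GRCh38), matched by identifier. That release holds 94.8% of the identifiers, and 3175 are numbered above its highest, so the annotation behind the table is later than that release and the role of GRCh37 is unclear. Unused sample columns numbered 0.

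Members and lists were chosen with earlier results of these data known. Estimated counts were rounded to whole numbers for tests. All 26379 genes with at least 1 rounded read were tested. Medians of genes of similar length used 20 bins of genes with at least 10 reads, and those of similar reads per TPM, added after seeing the data, used 20 bins of genes with at least 100 reads in each library. The text names all members, BRF2 and, of each list, the called genes and the 3 others with the most reads. It also names the largest rise and fall of each list among those with at least 100 reads. Genes past a 1.5-fold change, MAP2K6, FAS, overlapping genes, PTPRC and list genes without matched reads were named after their values were seen. No gene was named for a like pattern, since 2 libraries give 1 difference. Alternatives were the scaling, the test (the exact test of edgeR, given a biological variation of 0.1 or 0.4 as a coefficient), filters, pseudocounts of 0.5 reads and 1 CPM, the fold threshold, the TPM and gene length. The functions were tested on simulated data. Python 3.11.15, NumPy 2.4.6, pandas 2.3.3, SciPy 1.17.1, matplotlib 3.10.9, R 4.3.3, edgeR 4.0.16 and DESeq2 1.42.0 were used.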

Additional observations from a re-analysis of the deposited data

How the results depend on the processing

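No paired analysis was possible because each condition had 1 library, and no library could be left out for the same reason. No member was called with total reads, with TMM, median-of-ratios or upper-quartile scaling, or with subtraction of the median of genes of similar length. With edgeR's exact test at either assumed coefficient of variation, either filter on low counts or a pseudocount of 1 CPM, 0 were called as well. Those last settings could call none. They keep or shrink log2 fold changes that ran from -0.50 to 0.97, short of the 2-fold difference that a call needs. By the TPM, to which no test was applied, 1 passed 2-fold upward (MDM4). At a fold threshold of 1.5, 2 were called up-regulated (MDM4 and SESN3). Of 72 member values under the alternatives, 13 changed sign. MDM2 was at -0.075 under TMM scaling, -0.057 under DESeq2's median of ratios, -0.037 under the upper quartile, -0.064 by the TPM and -0.042 against genes of similar reads per TPM. SESN2 was at -0.18, -0.16 and -0.14 with those 3 scalings, -0.18 against genes of similar length and -0.23 against genes of similar reads per TPM. SESN1 was at -0.16 against genes of similar length and -0.020 against genes of similar reads per TPM, and ZMAT3 at -0.31 against the latter. CDKN1A, GADD45A, GDF15, MDM4 and SESN3 kept their sign in all 8, from 0.27 to 0.77 for GADD45A, 0.20 to 0.70 for GDF15, 0.29 to 1.30 for MDM4 and 0.10 to 0.96 for SESN3. The pseudocounts, small beside the CPM of these genes, could not change a sign. The scalings, which shift every gene downward, could not raise CDKN1A above 0.

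Of the lists, the regulators of p53 went from 2 up-regulated genes to 0 with TMM scaling, 0 against genes of similar length and 7 at a fold of 1.5. At that fold the up-regulated genes numbered 3 of the other p53 targets, 1 of the p21 partners (with 2 down-regulated), 1 of the sestrin partners, 1 of the GADD45 relatives and partners (with 1 down-regulated) and 3 of the stress and FOXO factors (1 at a fold of 2). Over all genes, 17.6% were called up-regulated and 2.87% down-regulated at a fold of 1.5. Against genes of similar length, 1 GADD45 partner (MAP2K6) passed 2-fold downward. The p used there was that of its CPM ratio before the subtraction, so it does not test the subtracted value. Without the subtraction, MAP2K6 was not called at a fold of 1.5. The cause of these moves was not tested, other than that a lower fold threshold calls more genes. With 1 library per condition, the intervals cover counting error alone, and the spread between cultures is unknown.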
